A study of Mus musculus with 24 samples.

Results

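The comparison set 6 tumours whose founding cells expressed BC74C against 3 whose founding cells expressed ZNF668, all 9 of them labelled ependymoma, out of 24 mouse tumours in the series. Tumours were taken by 2 labels only, the class gene and the word ependymoma in the name of the source, so no measured value decided who entered. The question was which differences between the class genes remained once the tumour label was the same on both sides. All tumours were excised from mouse cortex, and total RNA from each was measured on its own Affymetrix array. Strain, age, sex, the promoter behind the class gene and the way the cells were made are not given in the sources used here. RAB3A, the other class gene, has 2 ependymoma tumours, which entered the fits over all 24 tumours and 1 alternative fit of the ependymomas. The remaining BC74C and ZNF668 tumours, 3 and 6 in number, carry other labels: 2 BC74C and 2 ZNF668 tumours are labelled HGG (not spelled out in the labels), 3 ZNF668 tumours have no type, and 1 of each class gene is of unknown type. Replicate numbers follow the order of deposit within each group and pair nothing.

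Ependymoma is a glial tumour of the brain and spinal cord that is named after the ciliated cells lining the ventricles, and those of the hemispheres resemble radial glia, the stem cells of the embryonic cortex. Both class genes come from a screen of genes within large chromosomal alterations. The mouse orthologue of ZNF668, a gene for a zinc finger protein, is Zfp668. No approved symbol matches BC74C, and Bcl7c, a subunit of the BAF complexes that move nucleosomes, was examined only as a candidate for it.

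Values are log2 expression values as deposited, so a difference of 1 is a doubling. Array medians in the 9 tumours lay between 4.98 and 5.19. Of 17097 genes with a probe set of their own, 13222 passed a minimum mean of 3.76 over the 24 arrays and were tested with limma. The median standard error of a difference was 0.28, so the number of arrays limits what can be seen. The labels do not say whether the tumours came from separate animals, and p-values measure only the spread between these samples. In whole tumours, fewer cells of a type and less RNA per cell cannot be told apart.

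The namesake genes of the label were read in tumours with and without it. The mean of 23 tested genes of ependymal cells and motile cilia was 4.77 to 6.09 in the 11 ependymoma tumours, with a median of 5.09, against 4.50 to 6.15 with a median of 5.11 in the 13 others. The mean of 23 radial glia and neural stem genes was 8.40 to 9.40 with a median of 9.13 in ependymoma tumours, against 7.40 to 9.46 with a median of 8.80 in the others. The 2 ranges overlap. Of the 13 others only the 2 BC74C and 2 ZNF668 tumours labelled HGG have a stated type. The rest, among them 2 untyped and 2 unknown RAB3A tumours, may include ependymomas. The overlap therefore does not decide whether these genes mark the label. Foxj1, the switch for motile cilia, was 5.97 to 8.12 with a median of 6.57 in BC74C ependymomas, against 6.23, 5.47 and 6.26 in ZNF668 ependymomas.

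No mouse transcript of a class gene differed detectably between the groups. In BC74C tumours Bcl7c had a mean of 9.18 ± 0.48 (SD, n = 6), against 8.57 ± 0.35 (SD, n = 3) in ZNF668 tumours, and 1 BC74C tumour, at 8.47, and 1 ZNF668 tumour, at 8.91, kept the groups overlapping (exact permutation test, two-sided, p = 0.119, or 0.357 adjusted over 3 transcripts). In BC74C tumours Zfp668 had a mean of 5.09 ± 0.35 (SD, n = 6), against 5.08 ± 0.44 (SD, n = 3) in ZNF668 tumours (exact p = 0.952, adjusted 0.952). For Rab3a, the vesicle GTPase, the means were 8.57 ± 1.24 (SD, n = 6) in BC74C tumours, against 9.17 ± 1.01 (SD, n = 3) in ZNF668 tumours (exact p = 0.405, adjusted 0.607). With 84 ways to divide the 9 tumours the smallest p possible was 0.0238. Mouse probe sets need not read a human transgene, so these values check the labels only in part.

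With the label held constant, 4 genes passed the test across all genes, and all 4 were lower in BC74C tumours: Gsta2, Proca1, Btn1a1 and Abcg5. They make up 0.0303% of the 13222 genes tested. The share called higher was 0%, and with array weights limma called 3 higher and 14 lower. At an unadjusted p under 0.05 limma had 623 genes of the 13222, 305 higher and 318 lower. With no class difference a share of 0.05 of the genes tested is expected there, so such counts say little. The unadjusted counts given below are to be read against the same share.

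Gsta2, an alpha-class glutathione transferase that couples electrophiles to glutathione, had the largest difference of the 4. It was 3.41 to 4.20 with a median of 3.64 in BC74C tumours, against 8.25, 7.34 and 9.70 in ZNF668 tumours. Every ZNF668 tumour lay more than 3 units above the highest BC74C tumour. The difference was -4.73 (SE 0.44, adjusted p = 0.00909). In BC74C tumours its probe set ranked between the 19.0 and 39.6 percentiles of its array, in ZNF668 tumours between 71.6 and 92.5.

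Proca1, whose protein binds cyclin A1, was 3.47 to 5.11 with a median of 3.90 in BC74C tumours, against 7.84, 7.05 and 8.17 in ZNF668 tumours. The groups were again apart, with a gap of almost 2 units, and the difference was -3.60 (SE 0.39, adjusted p = 0.0123). This was the least stable of the calls: with each tumour left out in turn it passed 4 of 9 times.

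Btn1a1 encodes butyrophilin, a protein of the milk fat globule membrane. It was 3.01 to 3.52 with a median of 3.27 in BC74C tumours, against 5.17, 4.62 and 4.97 in ZNF668 tumours, a difference of -1.66 (SE 0.16, adjusted p = 0.00909). Its 2 other probe sets, both dimmer, differed by 0.011 and -0.20, and with the mean of all 3 the difference was -0.62 and did not pass (adjusted p = 0.0754). Abcg5 encodes a partner in the transporter that pumps sterols out of liver and gut cells. It was 3.09 to 3.39 with a median of 3.28 in BC74C tumours, against 4.73, 4.37 and 4.79 in ZNF668 tumours, a difference of -1.36 (SE 0.14, adjusted p = 0.00909). The groups did not overlap for either gene. Both were dim: in BC74C tumours their values lay below the 3.76 minimum set for a gene's mean, at array percentiles of 5.8 to 22.8 for Btn1a1 and 8.7 to 18.8 for Abcg5, and in ZNF668 tumours they lay near the middle of the array.

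Gsta2, Btn1a1 and Abcg5 each passed 8 of 9 times with a tumour left out. Without ZNF668 replicate 1 no gene passed, with 526 at an unadjusted p under 0.05. The direction of the 4 could not change with a tumour left out, because their groups did not overlap. Joining the 2 RAB3A ependymomas to the model also ended the 4 calls, since the smallest adjusted p became 0.274, and 681 genes were left with an unadjusted p under 0.05. In those 2 tumours Gsta2 was 3.62 and 7.85, Proca1 3.14 and 6.74, Btn1a1 3.25 and 4.37 and Abcg5 3.44 and 5.02. Gsta2 thus lay within the BC74C range in 1 RAB3A ependymoma and within the ZNF668 range in the other.

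**Figure D1:**
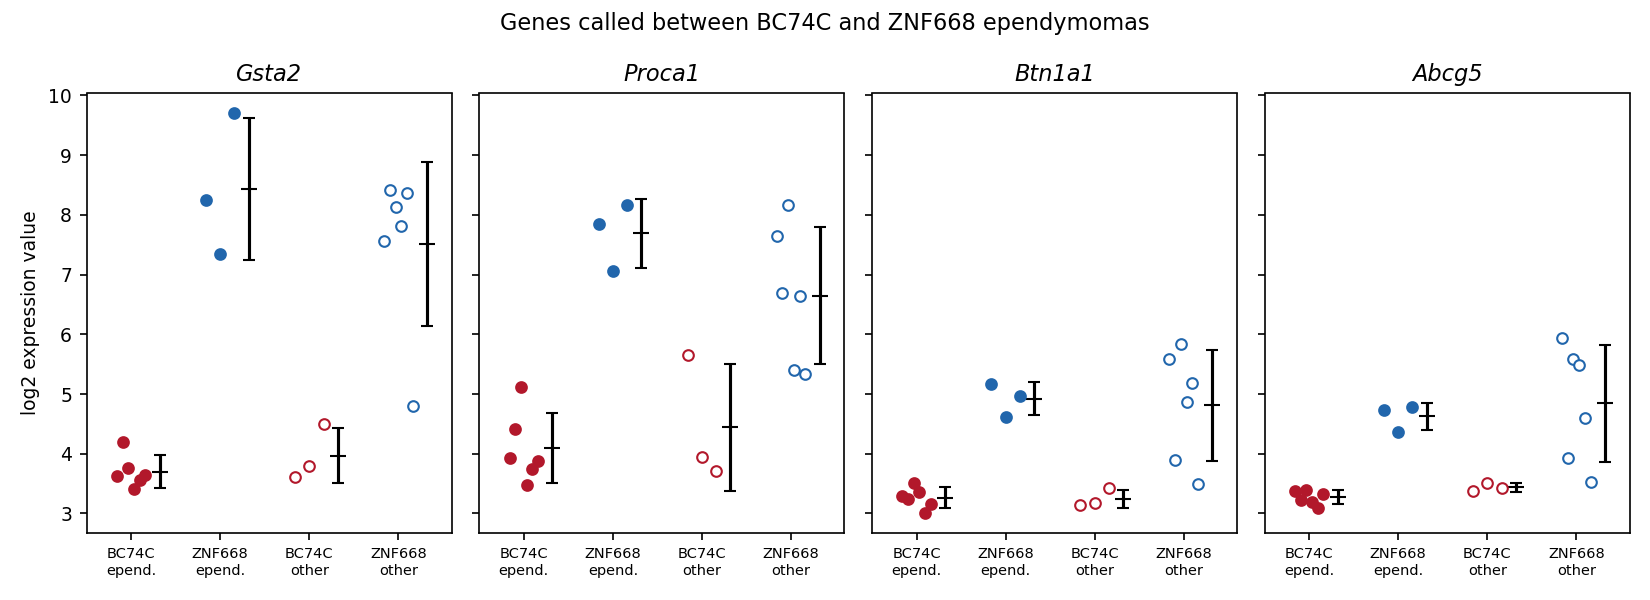
Log2 expression values of the 4 called genes, 1 point per tumour, in BC74C and ZNF668 tumours labelled ependymoma (filled) and with other labels (open). Black marks are means with SD; in the ependymoma tumours every BC74C point lies below every ZNF668 point for each gene.

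The 4 genes were also read in the 9 tumours with other labels, which share no sample with the ependymomas. The titles of these tumours do not all share a prefix, unlike those of the 9 ependymomas. A single library there stands apart: the ZNF668 tumour of unknown type had a Gsta2 value of 4.79 where the other 5 ZNF668 tumours lay at 7.56 to 8.42, and a radial glia list mean of 7.40 against 9.0 to 9.46. Gsta2 was 3.61, 3.80 and 4.49 in the BC74C tumours, against 4.79 to 8.42 with a median of 7.97 in the ZNF668 tumours. The groups did not overlap, and the difference was -3.54 (SE 0.74, adjusted p = 0.186). Without the tumour that stands apart it was -4.09 (SE 0.30, adjusted p = 0.00213), but that tumour was singled out by its Gsta2 value, so this p supports nothing. With any other tumour left out the adjusted p was 0.16 to 0.578. The differences of the other three in these tumours, -2.20 for Proca1, -1.56 for Btn1a1 and -1.41 for Abcg5, did not pass (adjusted p = 0.414, 0.412 and 0.47). Without the same tumour they were -2.47, -1.83 and -1.67, which did not pass either (adjusted p = 0.103, 0.069 and 0.0924). Btn1a1 and Abcg5 kept their groups apart there with all 9 tumours, and Proca1 did not. Of all 13222 genes tested, 311 kept the groups of these tumours apart on the lower side and 306 on the higher.

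The start regions of the called genes are shown because they are the stretches where shared control elements of the 4 would be looked for. RefSeq, on mouse build GRCm38.p6, gave a start for Abcg5 and Gsta2 and 2 for Proca1; Btn1a1 was not matched. Each sequence runs from 250 bases before the start to 50 after it, on the strand of the gene. Capitals mark TATAAA, the TATA box, and GGGCGG, the GC box, on either strand. The regions are chr9:78347096-78347395 (minus strand) for Gsta2, chr17:84682962-84683261 (minus strand) for Abcg5, and chr11:78193142-78193441 and chr11:78194452-78194751 (plus strand) for Proca1.
Gsta2: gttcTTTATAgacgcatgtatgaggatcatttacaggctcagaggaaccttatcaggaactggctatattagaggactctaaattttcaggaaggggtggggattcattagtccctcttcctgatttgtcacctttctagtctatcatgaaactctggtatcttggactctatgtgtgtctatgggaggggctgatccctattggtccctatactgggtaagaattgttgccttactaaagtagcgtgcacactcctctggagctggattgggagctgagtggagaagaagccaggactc
Abcg5: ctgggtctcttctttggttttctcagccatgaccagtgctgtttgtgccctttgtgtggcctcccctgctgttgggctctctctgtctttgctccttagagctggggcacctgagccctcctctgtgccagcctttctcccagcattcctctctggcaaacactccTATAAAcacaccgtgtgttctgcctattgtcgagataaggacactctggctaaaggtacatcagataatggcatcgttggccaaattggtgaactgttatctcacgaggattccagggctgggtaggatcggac
Proca1, first start: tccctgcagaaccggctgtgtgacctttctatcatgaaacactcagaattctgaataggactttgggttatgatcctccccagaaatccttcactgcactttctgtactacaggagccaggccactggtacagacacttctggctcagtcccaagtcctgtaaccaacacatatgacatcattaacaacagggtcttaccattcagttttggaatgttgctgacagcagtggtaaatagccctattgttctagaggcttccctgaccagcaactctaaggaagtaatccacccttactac
Proca1, second start: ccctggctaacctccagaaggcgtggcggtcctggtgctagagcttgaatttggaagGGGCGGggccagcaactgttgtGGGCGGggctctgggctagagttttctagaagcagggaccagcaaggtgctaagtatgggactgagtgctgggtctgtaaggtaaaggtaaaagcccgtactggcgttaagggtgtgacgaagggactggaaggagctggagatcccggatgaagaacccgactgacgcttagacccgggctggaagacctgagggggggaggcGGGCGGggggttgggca
All motifs were searched on both strands. TATAAA stood once in the Gsta2 window, on the other strand and 246 bases before the start, and once in the Abcg5 window, 84 bases before it. GGGCGG stood 3 times in the second Proca1 window. The antioxidant response element TGACNNNGC and the AP-2 motif GCCNNNGGC were in none of the 4 windows. Over all 32851 start windows of this length, TATAAA was found in 13.6%, GGGCGG in 35.7%, TGACNNNGC in 12.4% and GCCNNNGGC in 16.6%. A match describes the letters and is no evidence of binding.

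Beyond the 4, groups that do not overlap were counted. Every BC74C tumour lay above every ZNF668 tumour for 134 genes, or 1.01% of those tested, and below for 183, or 1.38%. For any gene, 1 of the 84 ways to divide the 9 tumours gives such a gap in a given direction. Shares of this size are thus expected with no class difference, and a gap alone says little. The 8 next genes by p in the lower direction, none of which passed, were Abhd11os, Col2a1, Lhx8, Ppp2r1b, Angptl6, Nol4l, Synpo2 and Scrg1, with adjusted p of 0.148 to 0.391. Angptl6, a secreted angiopoietin-like protein, had the largest difference of these, -2.46: it was 5.81 to 7.55 with a median of 7.42 in BC74C tumours, against 10.33, 8.72 and 9.53 in ZNF668 tumours. Lhx8, a homeobox factor of basal forebrain neurons, was 2.97 to 4.79 with a median of 3.48 in BC74C tumours, against 5.97, 5.49 and 5.78 in ZNF668 tumours. Its difference was -2.03, beside 1.17 in the tumours with other labels (adjusted p = 0.701). Col2a1, the main collagen chain of cartilage, was 3.30 to 3.81 with a median of 3.54 in BC74C tumours, against 4.42, 4.54 and 4.44 in ZNF668 tumours, a narrow and dim difference of -0.91. Abhd11os, annotated as the opposite strand of Abhd11, differed by -1.52; whether its probe set reads that strand alone was not checked. Ppp2r1b, a scaffold subunit of protein phosphatase 2A, differed by -1.36, Synpo2, an actin-binding protein, by -1.95, Scrg1 by -1.28 and Nol4l by -0.91.

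On the higher side no gene passed with its brightest probe set, and the 12 with the smallest p had adjusted p of 0.148 to 0.761. Pou3f4, a POU homeodomain transcription factor, was 7.06 to 8.04 with a median of 7.57 in BC74C tumours, against 5.76, 4.42 and 5.72 in ZNF668 tumours. The lowest BC74C tumour was more than 1 unit above the highest ZNF668 tumour, and the difference was 2.26 (SE 0.35, adjusted p = 0.148). Cavin2, a coat protein of caveolae, was 7.96 to 10.54 with a median of 9.35 in BC74C tumours, against 6.41, 7.14 and 5.74 in ZNF668 tumours, a difference of 2.85 (SE 0.53, adjusted p = 0.379). Its 2 other probe sets differed by 3.15 and 3.58, and both passed when every probe set was tested on its own. With array weights the difference of the brightest was 3.14 and passed (adjusted p = 0.0264). The adjusted p over all alternatives ran from 0.0264 to 0.946. Acta2, the actin of smooth muscle and pericytes, was 7.24 to 11.48 with a median of 10.48 in BC74C tumours, against 6.69, 6.35 and 5.60 in ZNF668 tumours. Its difference of 3.65 was the largest of the 12 and its spread among BC74C tumours the widest, at an SD of 1.85. The order depended on the setting: with the mean of all probe sets Acta2 differed by 1.92 and Cavin2 by 3.19, and with class gene plus label as additive terms by 1.98 and 2.17.

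Ackr3, a receptor that clears the chemokine CXCL12, was 9.26 to 10.28 with a median of 9.52 in BC74C tumours, against 8.30, 7.71 and 8.79 in ZNF668 tumours. Prdx4, a peroxiredoxin of the endoplasmic reticulum, was 9.54 to 10.59 with a median of 9.84 in BC74C tumours, against 8.62, 8.68 and 9.22 in ZNF668 tumours. Tfpi, which inhibits the tissue factor pathway of clotting, was 7.36 to 8.50 with a median of 8.16 in BC74C tumours, against 6.76, 6.67 and 6.24 in ZNF668 tumours. None of the 3 overlapped between groups, with differences of 1.36, 1.06 and 1.44 in that order. The ubiquitin ligases Rnf182 and Rnf125 differed by 1.77 and 1.68, the CREB coactivator Crtc2 by 0.95, Zfp768 by 0.95, Ccdc57 by 0.84 and Kctd17 by 0.65.

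**Figure D2:**
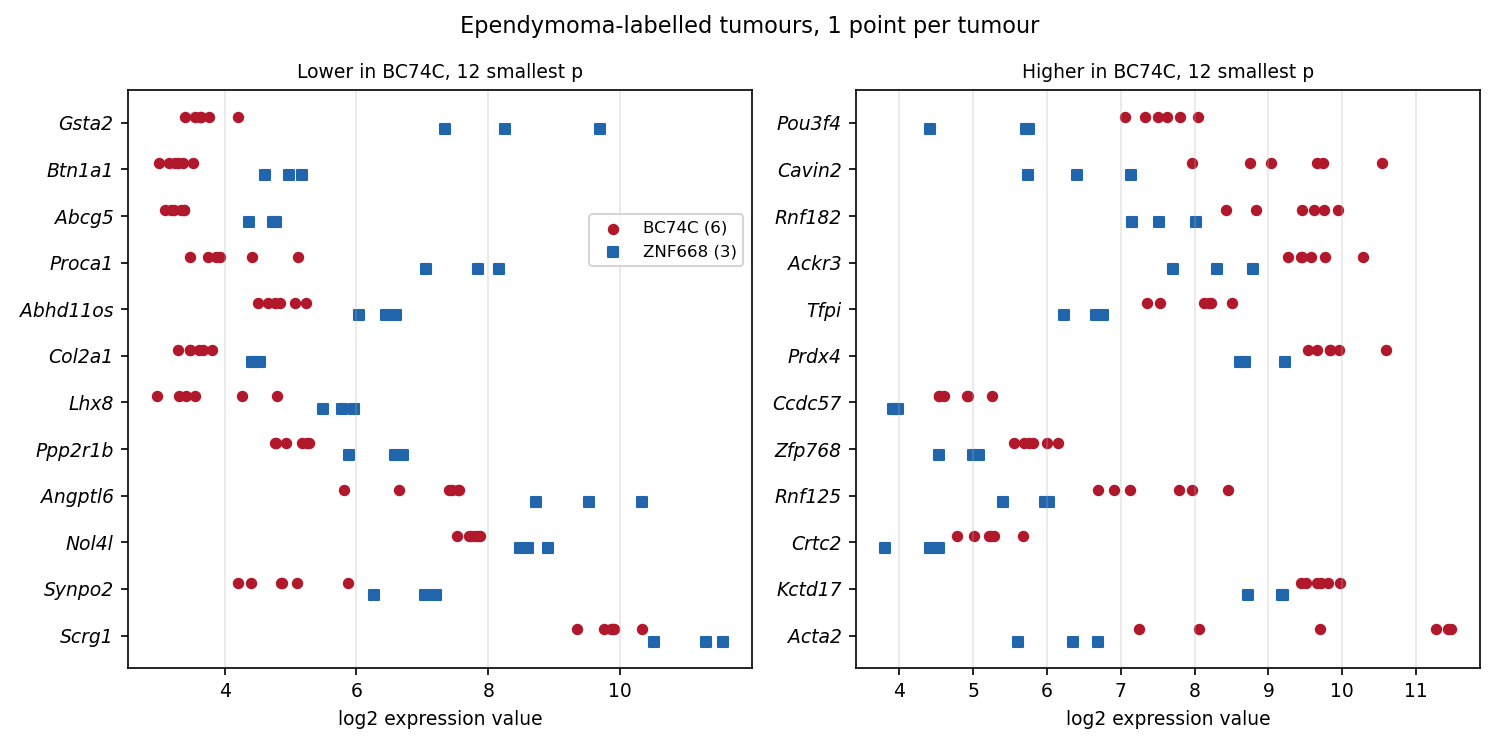
Log2 expression values in the 9 ependymoma tumours for the 12 genes with the smallest p in each direction, 1 point per tumour (circles, 6 BC74C; squares, 3 ZNF668). The groups are apart for all 24 genes, but only Gsta2, Btn1a1, Abcg5 and Proca1 passed across all genes.

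Over all 24 tumours and all labels, limma called 40 genes between BC74C and ZNF668, or 0.303% of those tested, 11 higher and 29 lower in BC74C. The 9 ependymomas are among those tumours, so the 2 comparisons share samples and are not independent. The 4 genes called within ependymoma were 10% of the 40 and 100% of their own list. The other genes of the 40 did not pass within ependymoma, where the lowest of their adjusted p was 0.148. The median size of a difference over the 40 was 1.39 within ependymoma, 1.52 in the tumours with other labels and 1.55 over all labels, while the median standard error was 0.36 within ependymoma and 0.28 over all labels. Within ependymoma 3 of the 11 higher genes and 22 of the 29 lower genes had groups that did not overlap, a count that the shared samples help to set.

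Of the genes lower over all labels, Smco3 was 2.91 to 4.36 with a median of 3.73 in BC74C ependymomas, against 7.79, 4.65 and 7.18 in ZNF668 ependymomas, where the second ZNF668 tumour was by far the lowest of the 3. Tfap2e, the AP-2 epsilon transcription factor, was 3.04 to 3.73 with a median of 3.21 in BC74C ependymomas, against 5.14, 4.06 and 6.52 in ZNF668 ependymomas. Gpx3, a secreted glutathione peroxidase, was 5.02 to 8.17 with a median of 7.04 in BC74C ependymomas, against 9.05, 8.97 and 8.77 in ZNF668 ependymomas. All 3 kept the groups apart, with adjusted p of 0.463, 0.536 and 0.902 within ependymoma. Slc27a3, an enzyme that activates fatty acids, differed by -1.36 within ependymoma and -2.35 in other labels. Aard, of which the values were 6.08 to 7.75 with a median of 7.35 in BC74C ependymomas, against 9.04, 7.62 and 8.82 in ZNF668 ependymomas, overlapped there, and its difference was -1.44 beside -3.33 in other labels. Edaradd, the adaptor of the ectodysplasin receptor, and Fndc1 also overlapped within ependymoma, with differences of -1.74 and -1.67. The other probe sets of Edaradd, all dimmer, differed by -0.18, 0.18 and -0.37 there.

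Of the genes higher over all labels, Gdpd3, a lysophospholipase, had the largest difference within ependymoma. It was 7.61 to 11.27 with a median of 10.65 in BC74C ependymomas, against 5.10, 9.30 and 5.45 in ZNF668 ependymomas. The second ZNF668 tumour lay within the BC74C range and the third BC74C tumour, at 7.61, below it. The difference of 3.60 (SE 1.02, adjusted p = 0.836) did not pass; without that ZNF668 tumour it was 4.94. Ptch1, the Hedgehog receptor and itself a target of the pathway, was 10.50 to 12.08 with a median of 11.25 in BC74C ependymomas, against 10.07, 10.26 and 10.25 in ZNF668 ependymomas. These groups did not overlap, and the difference was 1.08 (SE 0.35, adjusted p = 0.975), beside 1.04 in other labels. Gria1, an AMPA receptor subunit, was 10.01 to 11.38 with a median of 10.64 in BC74C ependymomas, against 9.49, 10.20 and 8.88 in ZNF668 ependymomas. Its groups overlapped and its difference was 1.11 within ependymoma, beside 2.36 in other labels. Rnf182 and the rhomboid protease Rhbdd1 kept the groups apart within ependymoma, with differences of 1.77 and 1.17. Frem1, Serinc2, N4bp3, the amino sugar enzyme Gnpnat1 and the mitochondrial RNA polymerase Polrmt overlapped, with differences of 0.75 for Polrmt to 1.44 for Frem1.

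A model of all 24 tumours with the class gene and the label as additive terms adjusts for the label. It gives a single class difference pooled over all labels, not the one within ependymoma. Untyped and unknown count as labels of their own there, though such tumours may include ependymomas, and no BC74C tumour is untyped. The model called 20 genes between BC74C and ZNF668, 4 higher and 16 lower, of which 18 were among the 40 called without the label. The 4 higher were Gdpd3 (3.62, adjusted p = 0.0166), Ptch1 (1.21, adjusted p = 0.0174), Rnf182 (1.65, adjusted p = 0.0239) and Gnpnat1 (0.96, adjusted p = 0.0481). Gsta2, Btn1a1 and Proca1 were among the lower, and Abcg5 was not.

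**Figure D3:**
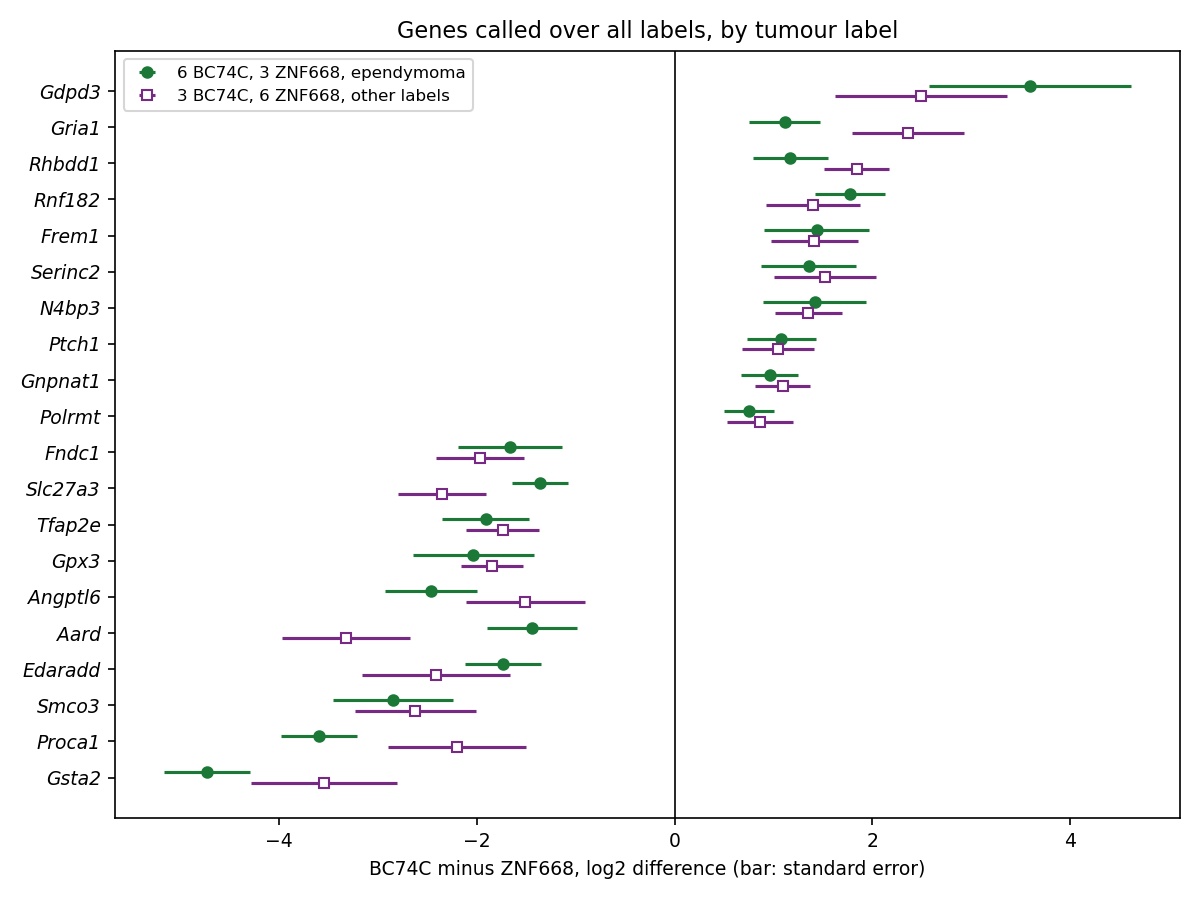
BC74C minus ZNF668 log2 differences with standard errors for the 20 genes named among those called over all labels, within the ependymoma label (circles) and in tumours with other labels (squares). All 20 were chosen from a comparison that includes both sets of tumours; Gsta2 is lowest in both, and the bars of Gdpd3 and Smco3 are wide.

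The class difference within ependymoma was tested against that in the tumours with other labels, as an interaction. Those labels are mixed and not matched, since 3 ZNF668 tumours and no BC74C tumour are untyped. The second difference thus mixes class gene with label, and its tumours do not all share a title prefix. The test therefore cannot isolate a change with the label. No gene passed (0% of 13222, limma), with 938 at an unadjusted p under 0.05, and array weights gave 1991 calls. The smallest adjusted p was 0.314. Il12b, a subunit of the cytokines IL-12 and IL-23, was 3.68 to 6.68 with a median of 4.44 in BC74C ependymomas, against 6.46, 5.60 and 4.77 in ZNF668 ependymomas, and 6.43, 7.02 and 7.0 in BC74C tumours with other labels, against 3.71 to 4.32 with a median of 3.98 in ZNF668 tumours with other labels. The 2 differences were -0.86 and 2.81, and the second is 1 of the 2 calls, 0.0151% of the genes tested, in the tumours with other labels. The other call there was Irx2, an Iroquois homeobox factor named after its values were seen, at -3.37 (SE 0.37, adjusted p = 0.0314), beside -1.28 (SE 0.88, adjusted p = 0.975) within ependymoma. The interaction of Il12b, the ependymoma difference minus the other, was -3.66 (SE 0.71, adjusted p = 0.314). Tmem119, a microglial membrane protein, separated the groups in opposite directions, with -1.43 within ependymoma and 1.16 in other labels, and an interaction of -2.59 (SE 0.52, adjusted p = 0.314). Tfpi and the tight junction protein Cldn5 had positive differences within ependymoma, 1.44 and 0.83, beside -1.49 and -1.66 in other labels.

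Of the other genes with the smallest interaction p, Ccl5, a T cell chemokine, differed by -1.30 within ependymoma and 2.66 in other labels, Ly6i by -1.06 and 1.37, and Cox6a2, a muscle form of a cytochrome oxidase subunit, by -1.18 and 1.43. Anapc7, a subunit of the anaphase-promoting complex, differed by 0.33 and -0.52, Jmjd7 by 0.65 and -0.71, and Nid1, a basement membrane protein, by 1.17 and -1.78. None passed.

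Lists of genes for cell types and pathways were described by counts, without a test, against all genes tested, of which 48% had a positive difference within ependymoma and 49.6% in other labels, with medians of -0.014 and -0.0042. Within ependymoma, groups that did not overlap made up 1.01% of all genes on the higher side and 1.38% on the lower. The range in brackets after a median within ependymoma is that of the same median with each tumour left out in turn. It crossed 0 for the neuron, proliferation, antigen presentation, endothelial, red blood cell, mesenchymal, NF-kappaB, glutathione, BAF, p53 and sex-linked lists. Apart from Gsta2, no member of any list was called within ependymoma.

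Oligodendrocyte progenitor genes had negative differences throughout: 0 of 12 tested members had a positive one within ependymoma, and the median was -0.62 (-1.01 to -0.47), beside 1 of 12 and -1.04 in other labels. Tnr, the matrix protein tenascin-R, was 5.54 to 7.77 with a median of 7.08 in BC74C tumours, against 7.93, 8.98 and 9.69 in ZNF668 tumours. Gpr17, a receptor of progenitors about to differentiate, was 4.60 to 7.99 with a median of 7.21 in BC74C tumours, against 8.99, 8.49 and 10.07 in ZNF668 tumours. Lhfpl3 was 8.06 to 9.23 with a median of 8.79 in BC74C tumours, against 9.68, 9.31 and 10.05 in ZNF668 tumours. These 3 of the 12 kept the groups apart, and Gpr17 was named after its values were seen; their adjusted p were 0.836, 0.957 and 0.888. At the other end Pdgfra, the growth factor receptor of the lineage, differed by -0.02 and Nkx2-2 by -0.13, and Olig2, its master transcription factor, by -0.54. The list mean was 6.81 to 7.88 with a median of 7.51 in BC74C tumours, against 8.34, 7.88 and 8.70 in ZNF668 tumours, so the groups met at 7.88.

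Mature oligodendrocyte genes had 1 of 13 positive and a median of -0.97 (-1.48 to -0.47), beside 9 of 13 and 0.59 in other labels. The spread among BC74C tumours was larger than this difference. The list mean was 5.33 to 10.01 with a median of 7.73 in BC74C tumours, against 8.37, 8.56 and 8.55 in ZNF668 tumours, with the extremes at both ends in BC74C replicates 1 and 3, and the median was highest and lowest without these 2. Ugt8a and Enpp6, a lipid enzyme of myelin and a marker of newly formed oligodendrocytes, differed by -1.71 and -1.68, Mbp, myelin basic protein, by -1.22, Mog by -0.65 and Aspa by 0.23. Another probe set of Mbp, with a mean of 9.41 over all arrays, differed by only 0.02. No member kept the groups apart.

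Neuronal and proliferation genes had opposite signs in the 2 sets of labels. Mature neuron genes had 4 of 21 positive and a median of -0.38 (-0.88 to 0.07) within ependymoma, beside 21 of 21 and 1.60 in other labels. Proliferation genes had 29 of 29 positive and a median of 0.60 (-0.11 to 1.17), beside 0 of 29 and -0.53. No single member of either list passed the interaction test.

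Within ependymoma both medians changed sign when 1 tumour was left out. The neuron list mean was 6.69 to 9.62 with a median of 8.46 in BC74C tumours, against 8.72, 9.90 and 7.63 in ZNF668 tumours, with replicates 3, 4 and 5 of BC74C near replicate 2 of ZNF668. The proliferation list mean was 5.66 to 8.99 with a median of 7.87 in BC74C tumours, against 7.56, 5.68 and 8.07 in ZNF668 tumours, and the 2 lowest, at 5.66 and 5.68, were BC74C replicate 3 and ZNF668 replicate 2. Without ZNF668 replicate 2 the neuron median was 0.07 and the proliferation median -0.11. Mki67, the proliferation antigen, was 5.48 to 10.44 with a median of 8.97 in BC74C tumours, against 8.56, 5.49 and 9.03 in ZNF668 tumours. Mcm3, a replication licensing factor, differed by 1.19, Pcna by 0.12 and Foxm1 by 0.18, and the transcription factor E2f1, at 0.59, was the one member of the list whose groups did not overlap. Among neuron genes the interneuron peptide Sst differed by -1.90, Syn1 by -0.87, Snap25 by -0.38, the peptide Cck by 0.07 and the cortical transcription factor Neurod6 by 1.35.

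**Figure D4:**
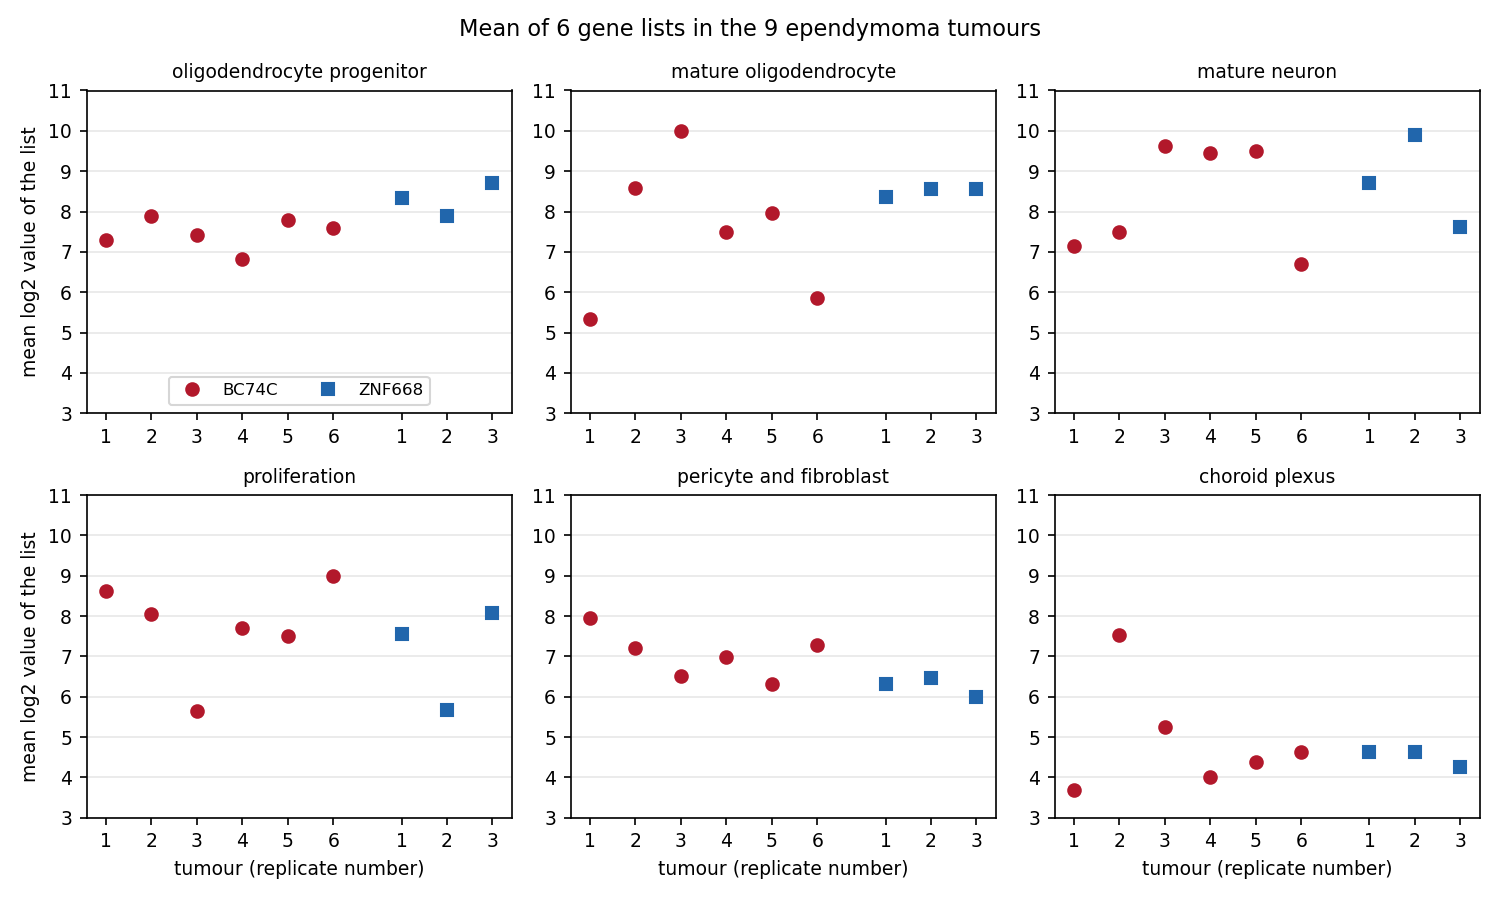
Mean log2 value of 6 gene lists in each ependymoma tumour (circles, BC74C replicates 1 to 6; squares, ZNF668 replicates 1 to 3). BC74C replicate 3 and ZNF668 replicate 2 are lowest in proliferation and high in neuron means, BC74C replicate 2 stands high in choroid plexus genes, and no panel keeps the class genes clearly apart.

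The main axis of variation across all genes held 45.6% of the variance of the 9 tumours, with BC74C replicate 3 and ZNF668 replicate 2 at one end and BC74C replicates 1 and 6 at the other, so the class genes were mixed along it. The first end held the 2 highest neuron and the 2 lowest proliferation means, and the other end the 2 lowest neuron and the 2 highest proliferation means. With the neuron list mean as a covariate 4 genes were called, the same 4.

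Ionotropic glutamate receptor genes, which neurons use at excitatory synapses, had 1 of 15 positive and a median of -0.35 (-0.70 to -0.10) within ependymoma, beside 10 of 15 and 0.37 in other labels. The median was nearest 0 without ZNF668 replicate 2 and farthest without BC74C replicate 4. Gria1 was the positive one. Grik1 and Grin2c, a kainate and an NMDA receptor subunit, differed by -1.54 and -1.25, and Cnih2, an AMPA receptor auxiliary protein, by -0.03. Newborn neuron genes had 5 of 11 positive and a median of -0.30 (-0.46 to -0.02), with Dlx1 and Dlx2, interneuron factors, at -1.52 and -0.85 and Sox11 and Sox4 at 0.78 and 0.31.

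Glutathione enzymes were divided in direction. They had 13 of 29 positive and a median of -0.09 (-0.24 to 0.05), beside 18 of 29 and 0.12 in other labels. Besides Gsta2 and Gpx3, Gstk1, a mitochondrial and peroxisomal transferase named after its values were seen, kept the groups apart on the lower side, at 6.39 to 8.06 with a median of 7.34 in BC74C tumours, against 8.21, 8.33 and 8.36 in ZNF668 tumours. Glutathione synthetase, Gss, kept them apart on the higher side, at 6.85 to 7.60 with a median of 7.15 in BC74C tumours, against 6.61, 6.75 and 6.69 in ZNF668 tumours. Glutathione reductase, Gsr, differed by 0.52. The 4 genes other than Gsta2 had adjusted p of 0.902 for Gpx3 and 0.975 or more for the rest.

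Hedgehog genes had 12 of 15 positive and a median of 0.24 (0.10 to 0.36), beside 5 of 15 and -0.13 in other labels. Ptch1, above, was the one whose groups did not overlap. Gli1, the pathway's own target and effector, named after its values were seen, was 3.48 to 7.12 with a median of 4.83 in BC74C tumours, against 3.54, 3.68 and 3.38 in ZNF668 tumours. Replicates 1 and 4 of BC74C were the high ones, at 6.67 and 7.12, and the lowest BC74C tumour lay within the ZNF668 range. Its difference was 1.57 (SE 0.78, adjusted p = 0.975). Hhat, which acylates the ligand, differed by 0.39, the co-receptor Boc by -0.22 and the ligand Ihh by -0.13.

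Pericyte and fibroblast genes had 10 of 12 positive and a median of 0.61 (0.34 to 0.79), beside 2 of 12 and -0.63 in other labels. The list mean was 6.33 to 7.96 with a median of 7.09 in BC74C tumours, against 6.32, 6.47 and 6.0 in ZNF668 tumours, with replicate 1 of BC74C highest; without it the median was lowest. Acta2 was the one member whose groups did not overlap; Col3a1, a fibrillar collagen, differed by 1.26, Des, desmin, by -0.11 and Vtn, vitronectin, by -0.66. Endothelial genes had 11 of 19 positive and a median of 0.10 (-0.02 to 0.20), beside 2 of 19 and -0.70. Pecam1 and Cdh5, both junction proteins, differed by 0.72 and 0.53, Ly6c1 by -0.91 and Ocln, occludin, by -1.01, the last with groups that did not overlap.

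Microglia and macrophage genes had 2 of 20 positive and a median of -0.36 (-0.58 to -0.0), beside 18 of 20 and 0.62 in other labels. In the tumours with other labels 12 of the 20 kept the groups apart on the higher side, beside 306 of all 13222 genes. Within ependymoma Tmem119 was 6.68 to 7.67 with a median of 7.50 in BC74C tumours, against 8.34, 8.27 and 9.74 in ZNF668 tumours. It was the one member whose groups did not overlap there (limma, adjusted p = 0.738). P2ry12, a purine receptor of resting microglia, differed by -0.80, while the macrophage genes Mrc1 and Lyz2 differed by 1.32 and 0.86. Without ZNF668 replicate 3 the median of the list was about 0. Antigen presentation and interferon genes had 11 of 18 positive and a median of 0.01 (-0.53 to 0.43), beside 18 of 18 and 0.85. The median was lowest without ZNF668 replicate 2 and highest without ZNF668 replicate 3. Nlrc5 and Ifit1 had the lowest moderated t, with differences of -0.49 and -0.47, and the class II gene H2-Ab1 was among the highest, at 0.65. T and NK cell genes had 4 of 10 positive and a median of -0.11 (-0.17 to -0.01), beside 9 of 10 and 0.29.

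Astrocyte genes had 2 of 13 positive and a median of -0.23 (-0.39 to -0.13); Slc1a2, the glutamate transporter, differed by -0.96, Gfap by -0.23 and Aldh1l1 by 1.98. Radial glia genes had 14 of 23 positive and a median of 0.19 (0.08 to 0.36), with differences of -0.79 for Hopx and -0.70 for Lhx2 at the lowest moderated t and 0.66 for Pax6 and 0.71 for Nr2e1 at the highest, and with Fabp7 at -0.24, Sox2 at 0.26 and Nes at 0.88. Ependymal and cilia genes had 14 of 23 positive and a median of 0.08 (0.06 to 0.30), and Rfx2 and Foxj1 had the highest moderated t, at 0.66 and 0.88. No member of these 3 lists kept the groups apart.

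Choroid plexus genes had 6 of 9 positive and a median of 0.53 (0.19 to 0.70). They were high in 1 tumour: BC74C replicate 2 had a list mean of 7.54 and a value of 13.13 for Ttr, transthyretin, the main secreted protein of that tissue, while the other BC74C tumours had list means of 3.68 to 5.26. The 3 ZNF668 tumours had 4.62, 4.64 and 4.27. The same tumour had the highest cilia list mean, 6.09, where the other BC74C tumours lay at 4.77 to 5.16. Without this tumour the median of the list was 0.19, and the 4 called genes stayed called.

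Hypoxia and glycolysis genes had 10 of 14 positive and a median of 0.11 (0.02 to 0.28), with Egln3 at 1.41. Mesenchymal glioma genes had 8 of 15 and 0.23 (-0.08 to 0.46), with Tgfbi at 1.01 and Chil1 at -0.80. NF-kappaB targets had 5 of 13 and -0.03 (-0.13 to 0.14), p53 targets 9 of 19 and -0.08 (-0.13 to 0.04), and BAF subunits 11 of 26 and -0.02 (-0.04 to 0.08). Pmaip1 and Ddit4 had the highest moderated t of the p53 targets, at 0.85 and 1.40, and Smarcc2 was the lowest BAF subunit, at -0.61. Red blood cell genes had 1 of 3 and -0.10 (-0.22 to 0.14). Sex-linked transcripts overlapped between the ependymoma groups: Xist was 9.80 to 12.21 with a median of 10.65 in BC74C tumours, against 11.06, 11.57 and 10.35 in ZNF668 tumours, and the Y-linked Eif2s3y 6.91 to 8.64 with a median of 8.11 in BC74C tumours, against 7.96, 7.53 and 8.59 in ZNF668 tumours. In the tumours with other labels Eif2s3y differed by -2.37 (adjusted p = 0.461), and the part this plays in their other differences was not tested.

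**Figure D5:**
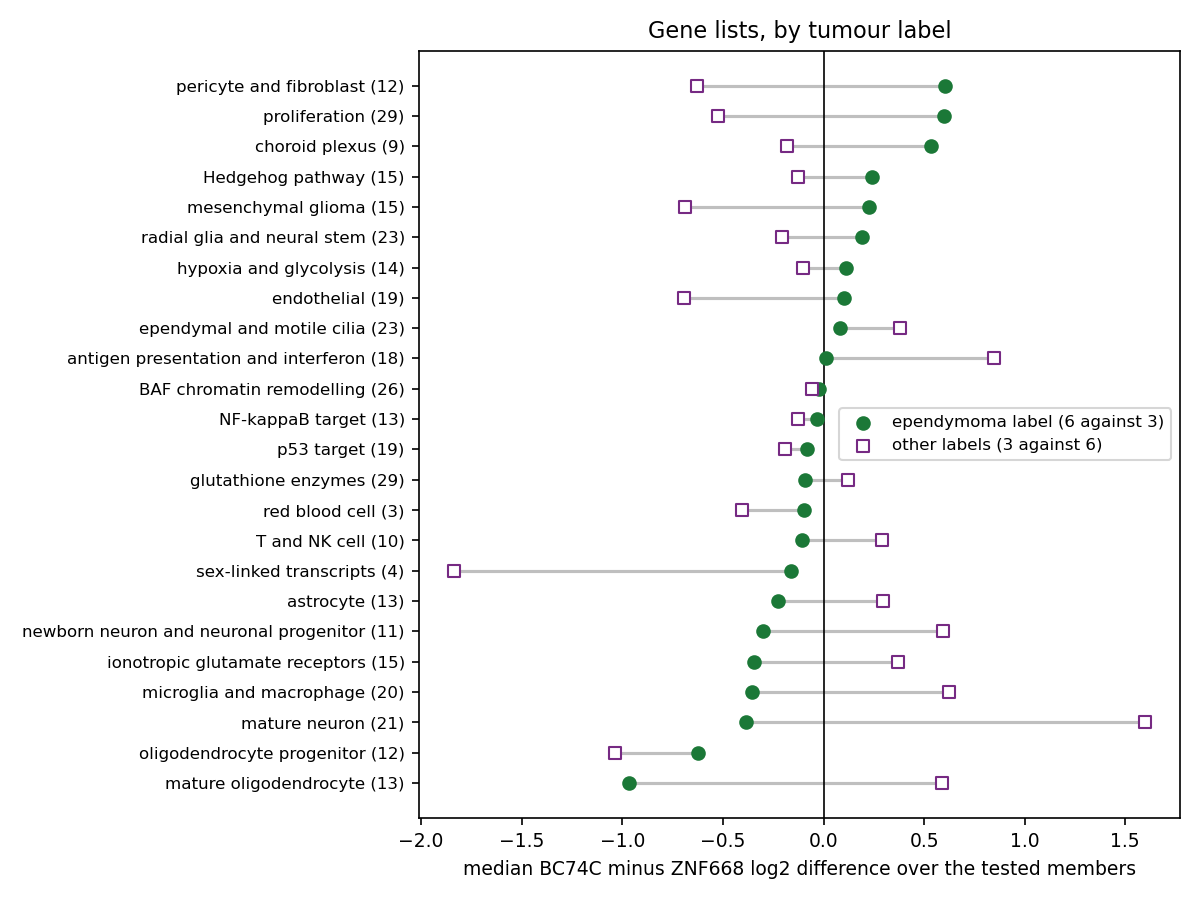
Median BC74C minus ZNF668 log2 difference over the tested members of each gene list (their number in brackets), within the ependymoma label (circles) and in tumours with other labels (squares). Oligodendrocyte progenitor genes lie below 0 in both, and neuron and proliferation genes on opposite sides.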

How the data were processed

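Total RNA was extracted with Trizol and biotin-labelled cRNA was prepared by the Affymetrix protocol, per the labels' protocols. The deposited log2 values, 1 per probe set and tumour, were used as the authors gave them. Partek 6.6 is named in the submitters' processing notes; background correction and normalization are not given in the sources used here, and a change shared by most genes would not be visible. Of 45141 probe sets, 104 controls were left out; 28898 carry 1 gene symbol, 551 several and 15588 none. For each gene the brightest of its single-symbol probe sets, by the mean of the 24 arrays, was read, and genes under the 30th percentile of probe set means (3.76) were left out.

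Comparisons used limma 3.58.1 in R 4.3.3 (lmFit and eBayes, trend on); p-values are two-sided and were adjusted by Benjamini-Hochberg across every gene tested, at a threshold of 0.05. The within-ependymoma fit holds the 9 tumours only, the comparison of other labels 9 tumours, the interaction all 18, and the comparison over all labels 24. The fit was tested on simulated data. Class gene transcripts were compared with exact permutation tests. All 9 ependymoma titles share a prefix, so no batch by prefix could be modelled among them. The BC74C and ZNF668 tumours with other labels carry that prefix or another, and both occur in each class gene. What the prefixes stand for is not given. With the prefix as a block, limma made 2 calls in the tumours with other labels and 0 in the interaction. By title number all BC74C ependymomas come before all ZNF668 ones. An effect that follows this order could not be told apart from the class gene.

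The comparison and the 24 gene lists (462 genes, 413 measured, 386 tested) were chosen with earlier results of these data known. The text names, passing over clone names, the 12 genes with the smallest p in each direction within ependymoma, the 10 largest and 10 smallest differences called over all labels, the 5 smallest interaction p in each direction, and the 2 highest and 2 lowest moderated t of a list; the rest are fixed names or are said to be named afterwards. Values and figures were computed with Python 3.11.15, pandas 2.3.3, scipy 1.17.1 and matplotlib 3.10.9. Alternatives changed the filter, the trend, the weights, the normalization, the probe sets, the covariates and the tumours included.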

Additional observations from a re-analysis of the deposited data

Results flagged for a closer look

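Values of 6 BC74C ependymomas or 6 ZNF668 tumours with other labels were screened for a single tumour far from the rest in 75 groups of values, and 5 were found; chance flags about 1 group in 20. Gdpd3 was 7.61 in BC74C ependymoma replicate 3, where the other 5 lay at 9.95 to 11.27. Zfp668 was 5.76 in BC74C ependymoma replicate 4, where the other 5 lay at 4.83 to 5.17. The ependymal and motile cilia list mean was 6.09 in BC74C ependymoma replicate 2, where the other 5 lay at 4.77 to 5.16; the same tumour was highest in choroid plexus genes. Gsta2 was 4.79 and the radial glia list mean 7.40 in the ZNF668 tumour of unknown type, where the other 5 lay at 7.56 to 8.42 and at 9.0 to 9.46. No class difference within ependymoma, set against that in other labels, passed the test of the interaction.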

How the results depend on the processing

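The count of 4 genes called within ependymoma was 2 with a filter at the 50th percentile (Gsta2 and Proca1), where Btn1a1 and Abcg5 were too dim to be tested. Class gene plus label as additive terms gave 20, for a class difference pooled over all labels rather than within ependymoma. The count within ependymoma was 17 with array weights and 1 with all 24 tumours in 10 groups (Gsta2). It was 8 of 31538 when every probe set was tested (2 higher, both of Cavin2), and 0 with the RAB3A ependymomas added (681 at an unadjusted p under 0.05). Leaving out 1 tumour gave 0 to 6, the 0 without ZNF668 replicate 1. It was 3 to 5 with no filter, no trend, quantile normalization, the mean of all probe sets, array centring and robust eBayes. It stayed in that range with the Y-linked or neuron mean as a covariate. The mean of all probe sets lost Btn1a1. Having no filter added Dio1, and the Y-linked covariate added Nt5e, both higher in BC74C tumours. With other labels the 2 calls became 0 with the 50th percentile filter (909 at an unadjusted p under 0.05), 3944 with array weights, and 0 to 120 when 1 tumour was left out, 0 without the BC74C tumour of unknown type (721 unadjusted) and 120 without the ZNF668 tumour of unknown type. Over all labels the 40 calls became 23 with the 50th percentile filter, 130 with array weights, and 25 to 63 without 1 tumour; the title prefix as a block gave 30. The interaction had 0 calls but 1991 with array weights and 0 to 2 without 1 tumour. The causes were not tested.

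Signs turned for some named genes, none of them called. With class gene plus label, Pecam1 was -0.37, Xist 0.34, Rab3a 0.036, Zfp668 -0.078, Snap25 0.30 and Ptprc 0.23. With array weights, Eif2s3y was 0.11, Kdm5d 0.16, Zfp668 -0.0089, Ptprc 0.12 and Ttr 0.12. With the mean of all probe sets, Xist was 0.29, Eif2s3y 0.014 and Kdm5d 0.016. With the Y-linked covariate, Eif2s3y was 0.086, Kdm5d 0.14 and Ttr 0.017; with the neuron covariate, Zfp668 was -0.0028 and Ttr 0.099. Without 1 tumour, Xist ran over -0.55 to 0.061, Eif2s3y -0.35 to 0.19, Kdm5d -0.41 to 0.24, Zfp668 -0.18 to 0.25, Snap25 -0.88 to 0.069, Ttr -1.42 to 0.62 and Mki67 -0.075 to 1.70. No paired analysis was possible because the labels carry no replicate numbers. Signal over background is not in the deposited values. This limits what can be said of dim genes such as Btn1a1 and Abcg5, and of the dim BC74C values of Gsta2.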
